A study of Homo sapiens with 15 samples.

Results

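The genes described here are NF-kB feedback genes and inflammatory chemokines: NFKBIA, TNFAIP3, RELB, ICAM1, CXCL8, CXCL1, CXCL2, CXCL3, CCL2 and CCL20. They were chosen by name, taking every probe whose gene symbol in the platform annotation is one of these 10, out of 20046 genes with a probe of their own. The 10 genes had 11 probes, 2 of them for CXCL8. The study profiled VCaP, a widely used prostate cancer cell line with a TMPRSS2-ERG fusion, on 15 Illumina HumanHT-12 v4 expression arrays, with 3 arrays in each of 5 groups. ERG siRNA 1 and ERG siRNA 2 were transfected for 72 h and set against a non-targeting siRNA. WP1130, a compound that blocks a number of deubiquitinating enzymes, was given for 24 h and set against DMSO. All 5 groups were the same cell line in medium with serum. The labels give neither the WP1130 dose nor how long the control cells were treated. A single cell line was used, and nothing in the labels states whether the 3 arrays of a group were separate cultures, so the p-values reflect array-to-array spread that may be technical.

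NF-kB is a family of dimeric transcription factors that IkB proteins hold in the cytoplasm until the IKK kinase complex marks the IkB for ubiquitin-dependent destruction by the proteasome. Among the genes that NF-kB then switches on are its own brakes, such as the IkB gene NFKBIA and the ubiquitin-editing enzyme gene TNFAIP3, so that a pulse of activity limits itself. It also switches on chemokines that draw neutrophils, monocytes and lymphocytes to inflamed tissue. Because ubiquitin chains are used both to build and to end this signal, deubiquitinases act at several of its steps.

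The promoters of 8 of the 10 members were matched by symbol in a RefSeq table of the GRCh38.p14 build. RELB and CCL2 were not matched. The matched promoters were searched on both strands, over the 250 bases before the start, for the degenerate NF-kB consensus and for the core GGAANTTCC, which can overlap the consensus by all its bases. The consensus was found in 6 of the 8 member promoters and in 5.21% of 35116 promoters of the same length, and the core in 6 of 8 and in 0.826%. The members are genes known for NF-kB control, so these counts describe the list. A match is not a measured site. The stretches that hold these matches are printed so that the letters can be set beside the measured changes. Positions count back from -1, the last base before the start. Each stretch runs 5' to 3' on the gene's strand from -140 to -1, or from -220 to -81 for ICAM1, and capitals mark the NF-kB matches.
NFKBIA, chr14:35404750-35404889, minus strand: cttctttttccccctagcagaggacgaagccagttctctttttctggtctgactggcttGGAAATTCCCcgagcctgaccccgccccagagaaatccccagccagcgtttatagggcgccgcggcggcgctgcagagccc
TNFAIP3, chr6:137867119-137867258, plus strand: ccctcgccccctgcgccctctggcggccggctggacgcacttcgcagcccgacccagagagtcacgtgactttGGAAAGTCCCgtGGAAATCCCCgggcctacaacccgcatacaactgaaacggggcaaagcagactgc
ICAM1, chr19:10270900-10271039, plus strand: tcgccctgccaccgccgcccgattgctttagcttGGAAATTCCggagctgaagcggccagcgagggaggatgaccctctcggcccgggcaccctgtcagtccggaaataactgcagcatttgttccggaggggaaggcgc
CXCL8, chr4:73740429-73740568, plus strand: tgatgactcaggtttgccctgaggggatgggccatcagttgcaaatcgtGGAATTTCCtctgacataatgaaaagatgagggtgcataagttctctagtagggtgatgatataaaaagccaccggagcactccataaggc
CXCL1, chr4:73869253-73869392, plus strand: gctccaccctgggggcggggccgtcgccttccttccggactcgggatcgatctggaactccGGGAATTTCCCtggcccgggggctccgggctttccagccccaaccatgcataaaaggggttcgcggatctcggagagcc
CXCL2, chr4:74099196-74099335, minus strand: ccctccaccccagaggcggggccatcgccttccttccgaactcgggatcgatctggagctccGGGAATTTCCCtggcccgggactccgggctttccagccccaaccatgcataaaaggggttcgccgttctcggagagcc
CXCL3, chr4:74038690-74038829, minus strand: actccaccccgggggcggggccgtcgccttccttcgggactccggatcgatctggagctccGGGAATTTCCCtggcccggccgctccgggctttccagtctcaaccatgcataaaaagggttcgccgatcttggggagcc
CCL20, chr2:227813702-227813841, plus strand: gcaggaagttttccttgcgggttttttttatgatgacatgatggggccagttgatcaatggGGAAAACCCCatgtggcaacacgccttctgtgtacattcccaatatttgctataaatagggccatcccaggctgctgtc
CXCL1, CXCL2 and CXCL3 carried the same letters, GGGAATTTCC, in which the consensus starts at position -79 in CXCL1 and CXCL3 and at -78 in CXCL2. On the arrays described next, CXCL1 rose with WP1130 while CXCL3 did not pass the test. Over 250 bases the CXCL1 promoter was 81.4% identical to that of CXCL3 and 70.4% identical to that of CXCL2, against 42.6% to that of CXCL8. NFKBIA had the consensus GGAAATTCCC from -81, CCL20 had GGAAAACCCC from -79, and TNFAIP3 had 2 matches, GGAAAGTCCC from -67 and GGAAATCCCC from -55, these 3 genes reading as the consensus on the opposite strand. ICAM1 and CXCL8 had the core but not the full consensus, with GGAAATTCC from -186 and GGAATTTCC from -91. CXCL8 was the only one of the 8 with the AP-1 motif TGANTCA, at -137, which was in 6.57% of all promoters.

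With WP1130, compared with DMSO, 7 of the 10 genes were higher: NFKBIA, TNFAIP3, RELB, CXCL8, CXCL1, CCL2 and CCL20 rose, while ICAM1 and CXCL3 did not pass the test and CXCL2 did not pass the detection filter. Levels are log2 intensities after background correction and quantile normalization, and a change is a difference of group means on that log2 scale. A probe counts as detected on an array when its detection p is under 0.05, and passed the filter if detected on at least 3 of the 15 arrays. A gene was called when its limma p, adjusted by Benjamini-Hochberg over 12744 genes, was under 0.05. In this comparison 59% of all genes were called, 21.9% higher and 37.1% lower. TNFAIP3, CCL20 and CXCL1 passed the filter only through the WP1130 arrays, being detected on fewer than 3 of the other 12. Entry in this way favours genes that are high with WP1130: of 713 such genes among all genes, 439 were called higher. The number of members called is therefore an account of the 10 genes and no more.

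NFKBIA encodes IkB alpha, the inhibitor that captures NF-kB and is remade after each pulse. Its log2 intensity was 12, 12.23 and 12.21 on the WP1130 arrays, against 11.18, 11.27 and 11.18 on the DMSO arrays. All 3 WP1130 arrays lay above all 3 DMSO arrays, and above every other array of the series, where the range was 11.09 to 11.44. NFKBIA rose by 0.94 ± 0.08 (SE), or 1.92-fold (limma adjusted p = 1.45e-07). The probe was bright and detected on 15 of 15 arrays, with raw intensities of 3029, 3568 and 3616 on WP1130 arrays, against 2456, 2960 and 2729 on DMSO arrays. The WP1130 arrays as a whole were dimmer, at 74.6% of the mean raw intensity of the DMSO arrays. With no scaling between arrays the change of NFKBIA was 0.34 (adjusted p = 0.0129), where the median over all genes was -0.65, against -0.12 after quantile normalization.

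TNFAIP3 encodes A20, which trims and rebuilds ubiquitin chains on signalling proteins and so shuts off NF-kB. It was detected on the 3 WP1130 arrays and on 0 of the other 12. Its log2 intensity was 6.56, 7.12 and 6.90 with WP1130, against 4.76, 4.63 and 4.83 with DMSO. TNFAIP3 rose at least 3.82-fold (adjusted p = 8.84e-10), with means of 6.86 ± 0.28 with WP1130 and 4.74 ± 0.10 with DMSO (SD, n = 3 each). For such a bound each DMSO array entered at the dimmest detected probe on it, or at the probe's own value where that was higher. Wherever a rise or fall is given as at least some fold, the bound allows for the undetected level alone. It does not allow for spread among arrays or for the way of processing. Without background correction the change of TNFAIP3 was 0.82, a smaller rise than its bound.

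RELB encodes the NF-kB subunit that pairs with p52 in the non-canonical branch of the pathway, and is itself an NF-kB target. Its log2 intensity was 6.06, 6.21 and 5.73 with WP1130, against 4.78, 4.88 and 4.89 with DMSO. RELB was detected on 3 WP1130 arrays and on 0 DMSO arrays. It rose at least 2.11-fold by the bound described for TNFAIP3, which allows for the undetected DMSO level alone (limma adjusted p = 9.75e-07). The probe was dim: raw intensities were 139, 138 and 130 with WP1130, against 119, 125 and 125 with DMSO and 130, 141 and 129 with the non-targeting siRNA. On the raw scale the WP1130 arrays thus lay above the DMSO arrays and among the non-targeting arrays. Background medians were 101 to 104 on the WP1130 arrays and 109 to 116 on the other arrays, so raw values of dim probes start lower with WP1130. Without background correction the change of RELB was 0.38 (limma adjusted p = 9.8e-07), a smaller rise than that bound.

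**Figure D1:**
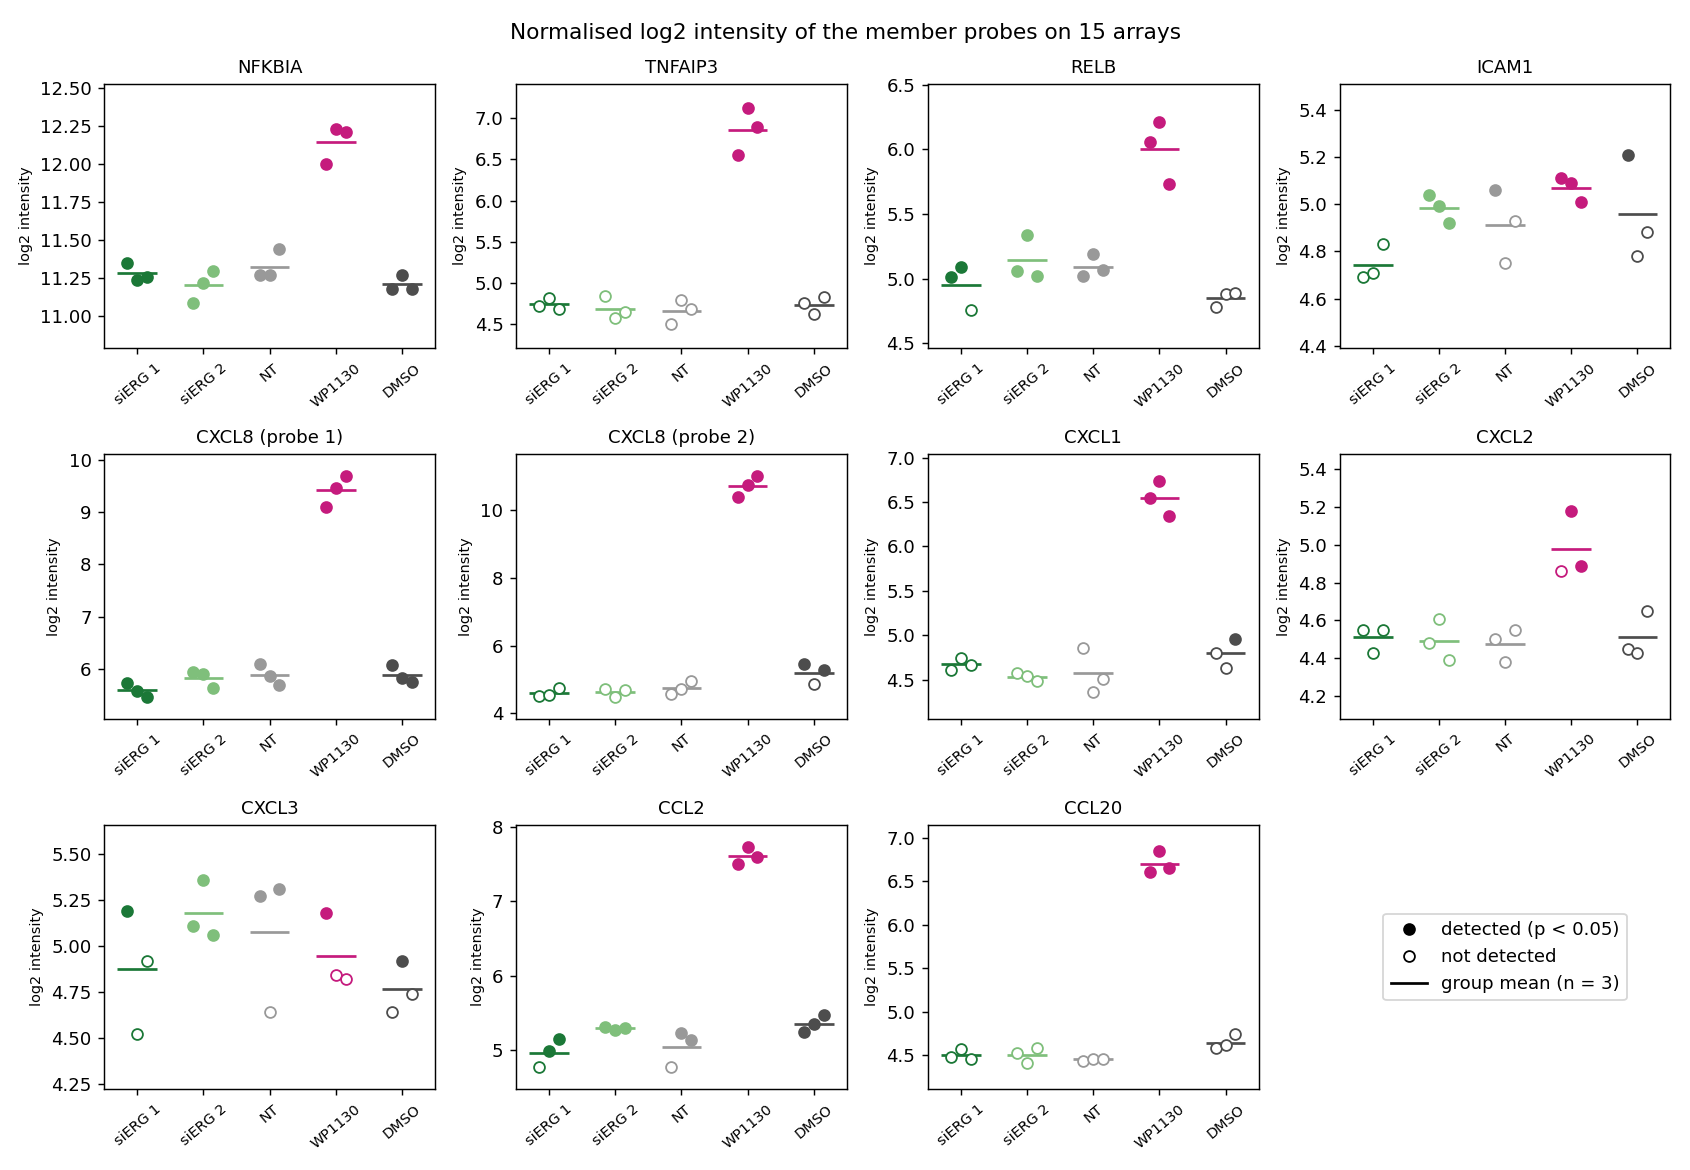
Normalised log2 intensity (vertical axis, its own range in each panel) of the 11 member probes by group (horizontal axis, siERG being ERG siRNA and NT the non-targeting siRNA), with 1 point per array, filled where the probe was detected, and a bar at the mean of 3 arrays. The WP1130 points stand above all others for NFKBIA, TNFAIP3, RELB, both CXCL8 probes, CXCL1, CXCL2, CCL2 and CCL20, and among the others for ICAM1 and CXCL3.

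CXCL8 encodes interleukin 8, the main neutrophil-attracting chemokine in humans, and had the largest change of the 9 members past the filter. On the probe that represents the gene, log2 intensity was 9.10, 9.47 and 9.69 with WP1130, against 6.08, 5.82 and 5.75 with DMSO. CXCL8 rose by 3.54 ± 0.15, or 11.6-fold (adjusted p = 1.48e-11), which ranked 85 among the rises of 12744 genes. The other CXCL8 probe gave 10.39, 10.74 and 11.01 with WP1130, against 5.45, 4.87 and 5.27 with DMSO, and its change was 5.52 ± 0.16 (adjusted p = 2.65e-13 when every probe was tested on its own). The probes differed in size and not in direction. They also differed at rest: outside the WP1130 arrays the first was detected on 12 of 12 arrays and the other on 2 of 12, both of them DMSO arrays. Raw intensities of the first were 435, 525 and 639 with WP1130, against 161, 157 and 154 with DMSO, and those of the other were 985, 1200 and 1515 with WP1130, against 137, 125 and 136 with DMSO. Which part of the transcript each probe measures was not analysed here.

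CXCL1, CXCL2 and CXCL3 encode closely related chemokines that act, like interleukin 8, through the neutrophil receptor CXCR2. Of these genes CXCL1 rose with WP1130. Its log2 intensity was 6.55, 6.74 and 6.34 with WP1130, against 4.80, 4.63 and 4.96 with DMSO, a change of 1.75 ± 0.12 (adjusted p = 1.16e-08). It was detected on 3 of 3 WP1130 arrays and on 1 of 3 DMSO arrays, so the size of this change rests on DMSO values at background. CXCL3 had 5.18, 4.84 and 4.82 with WP1130, against 4.64, 4.92 and 4.74 with DMSO. The groups overlapped and the change was 0.18, with a 95% confidence interval of -0.21 to 0.57 (adjusted p = 0.413). CXCL2 was detected on 2 WP1130 arrays and on 0 of the other 12, so it did not pass the filter. It had 4.86, 5.18 and 4.89 with WP1130, against 4.45, 4.43 and 4.65 with DMSO, which do not overlap, as for 23.7% of all genes in this direction. In a fit with no filter CXCL2 was higher, at least 1.03-fold (adjusted p = 0.000976). On the raw scale CXCL2 had 113, 115 and 113 with WP1130, against 107, 109 and 117 with DMSO, and these overlap. These raw values include the lower background of the WP1130 arrays. Whether probes of these related genes bind each other's transcripts was not tested.

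CCL2 attracts monocytes through the receptor CCR2. Its log2 intensity was 7.50, 7.73 and 7.60 with WP1130, against 5.24, 5.35 and 5.47 with DMSO, and it was detected on all 6 of these arrays. CCL2 rose by 2.26 ± 0.12, or 4.79-fold (adjusted p = 2.28e-10). CCL20, which attracts lymphocytes and dendritic cells through CCR6, was detected on the 3 WP1130 arrays and on 0 of the other 12. It had 6.61, 6.85 and 6.65 with WP1130, against 4.58, 4.62 and 4.74 with DMSO, and rose at least 3.42-fold (adjusted p = 5.11e-12). Both genes were far outside the spread of the other 12 arrays, which ran from 4.77 to 5.47 for CCL2 and from 4.41 to 4.74 for CCL20.

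ICAM1 encodes the endothelial and epithelial adhesion molecule that binds leukocyte integrins, and is a textbook NF-kB target. It had 5.11, 5.09 and 5.01 with WP1130, against 5.21, 4.78 and 4.88 with DMSO. The highest DMSO array lay above all WP1130 arrays, and the change was 0.11, with a 95% confidence interval of -0.11 to 0.33 (adjusted p = 0.375). The probe was dim in every group, with raw means of 116 with WP1130 and 126 with DMSO, and was detected on 8 of 15 arrays. The raw means include the lower background of the WP1130 arrays. Without DMSO replicate 1 its change was 0.24 and passed (adjusted p = 0.0429).

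**Figure D2:**
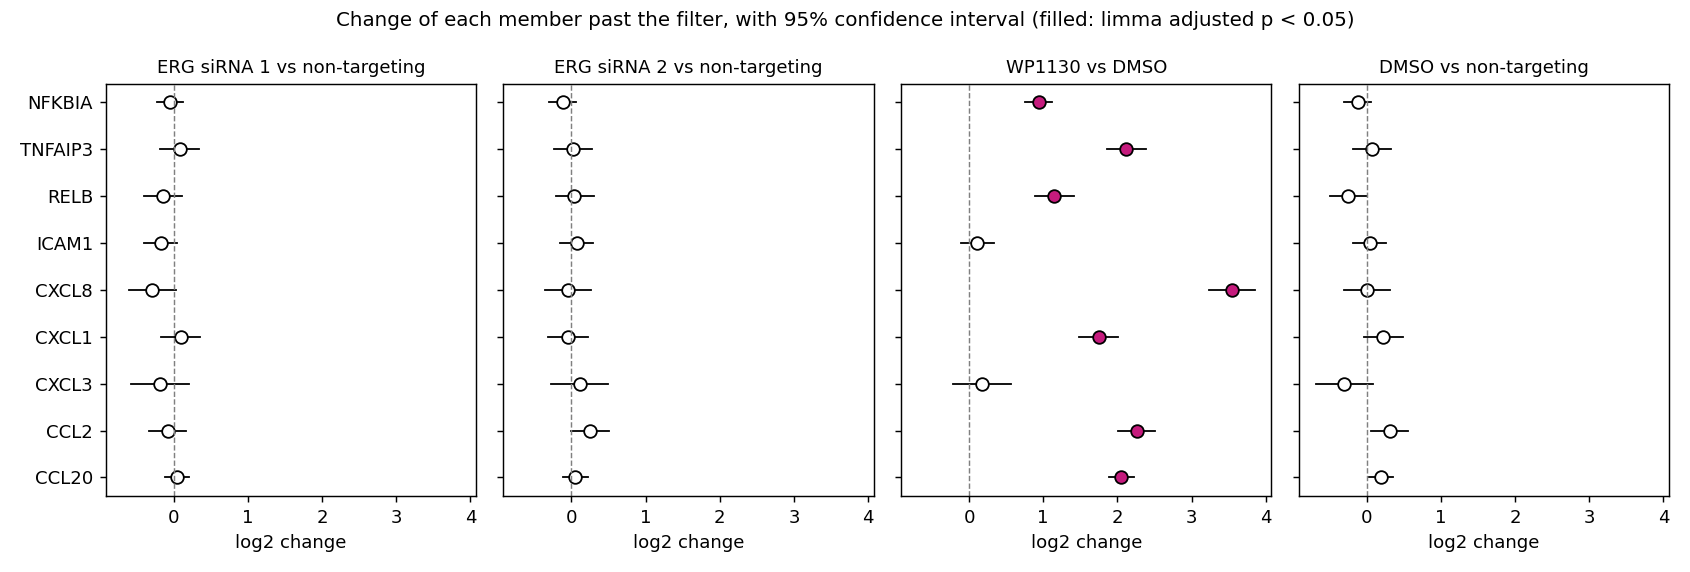
Change on the log2 scale (horizontal axis) of the 9 members past the filter (rows) in 4 comparisons, with 95% confidence intervals from the limma model and filled points where the adjusted p was under 0.05. Filled points occur for 7 members with WP1130 against DMSO, from 0.94 for NFKBIA to 3.54 for CXCL8, and for none in the other panels.

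The size of the WP1130 changes depended on how dim intensities were treated, and the direction of the 7 called genes was the same in the 5 ways of processing shown in the plot of changes by processing. Without background correction the changes of dim probes were smaller, with 0.82 for TNFAIP3, 0.64 for CXCL1, 0.77 for CCL20, 1.09 for CCL2 and 2.33 for CXCL8. With the authors' processed values they were larger for these genes, with 3.26 for TNFAIP3, 2.75 for CXCL1, 3.31 for CCL20, 2.88 for CCL2 and 4.01 for CXCL8. With no scaling the changes of ICAM1 and CXCL3 were -0.13 and -0.05, neither of which passed. Over all genes the share of calls that were higher was 37.1%, against 18.9% with median scaling and 10.6% with no scaling, where the all-gene medians were -0.36 and -0.65.

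**Figure D3:**
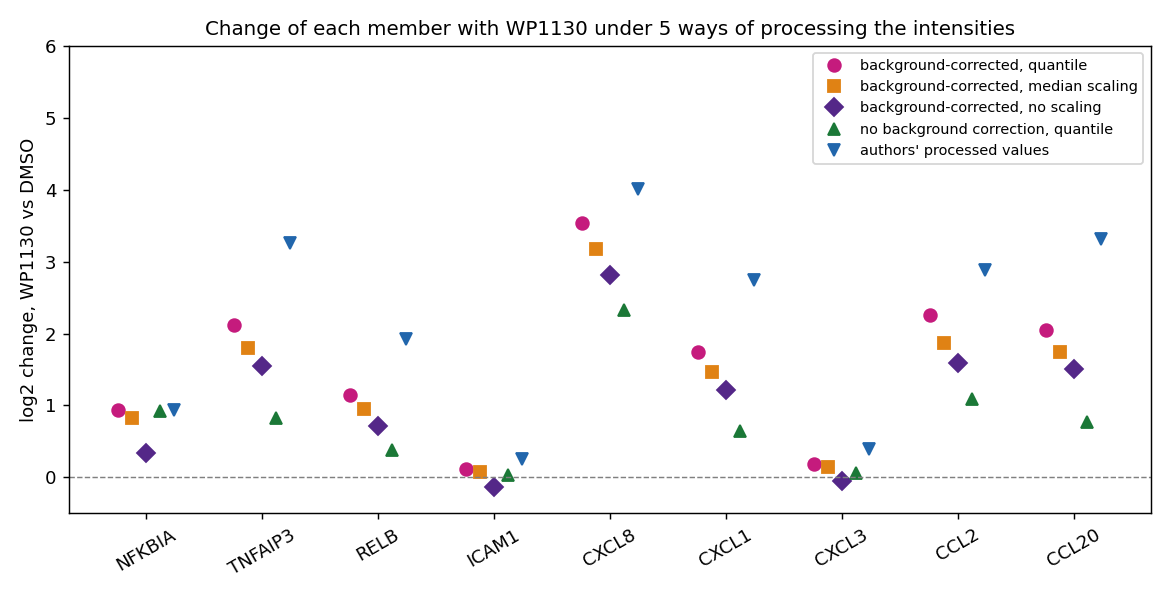
Change with WP1130 against DMSO on the log2 scale (vertical axis) of the 9 members past the filter (horizontal axis), with 1 symbol for each of 5 ways of processing the intensities. The 7 genes that rose lie above 0 in each, from 0.34 for NFKBIA with no scaling to 4.01 for CXCL8 with the authors' processed values.

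No member was called with either ERG siRNA. The targeted gene itself fell by 0.71 ± 0.18 with ERG siRNA 1 (limma adjusted p = 0.019) and by 0.78 ± 0.18 with ERG siRNA 2 (adjusted p = 0.0079). Its log2 intensity was 6.13, 6.04 and 5.84 with the non-targeting siRNA. It was 5, 5.76 and 5.12 with ERG siRNA 1 and 5.57, 4.81 and 5.29 with ERG siRNA 2. The dimmest detected probes on the ERG siRNA arrays were at 4.91 to 4.97. The sizes of these falls thus rest in part on values near background. With WP1130 ERG fell by 0.54 ± 0.18 (adjusted p = 0.02). Of the 9 members past the filter limma called 0 with ERG siRNA 1, 0 with ERG siRNA 2 and 0 when the siRNAs were averaged, where 13%, 18.6% and 20.2% of all genes were called. At an unadjusted limma p under 0.05 the numbers were 0, 1 and 0. The share of all genes at that threshold is not given here, so these numbers have no background to be read against. Both siRNAs were set against the same 3 non-targeting arrays.

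NFKBIA had 11.35, 11.24 and 11.26 with ERG siRNA 1 and 11.09, 11.22 and 11.30 with ERG siRNA 2, against 11.27, 11.27 and 11.44 with the non-targeting siRNA. The groups overlapped, and the change for the mean of both was -0.08, with a 95% confidence interval of -0.24 to 0.07, which leaves out a shift of the size seen with WP1130. CXCL8 had 5.74, 5.58 and 5.47 with ERG siRNA 1 and 5.95, 5.90 and 5.63 with ERG siRNA 2, against 6.09, 5.86 and 5.69 with the non-targeting siRNA. Its change was -0.29 with ERG siRNA 1 (95% confidence interval -0.60 to 0.03, adjusted p = 0.236) and -0.05 with ERG siRNA 2 (-0.36 to 0.26). CCL2 had 4.77, 4.98 and 5.14 with ERG siRNA 1 and 5.31, 5.27 and 5.30 with ERG siRNA 2, against 4.77, 5.23 and 5.13 with the non-targeting siRNA. The ERG siRNA 2 arrays lay above the other 6, with a change of 0.25 against the non-targeting siRNA (unadjusted p = 0.0471, adjusted p = 0.157), where arrays did not overlap, and were higher, for 18.8% of all genes.

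RELB had 5.01, 5.09 and 4.76 with ERG siRNA 1 and 5.06, 5.34 and 5.02 with ERG siRNA 2, against 5.02, 5.19 and 5.07 with the non-targeting siRNA, and its groups overlapped. CXCL3 varied most among replicates, with 5.19, 4.52 and 4.92 for ERG siRNA 1 and 5.11, 5.36 and 5.06 for ERG siRNA 2, against 5.27, 4.64 and 5.31 for the non-targeting siRNA. ICAM1 had 4.69, 4.71 and 4.83 with ERG siRNA 1 and 5.04, 4.99 and 4.92 with ERG siRNA 2, against 5.06, 4.75 and 4.93 with the non-targeting siRNA. TNFAIP3, CXCL1, CXCL2 and CCL20 were detected on 0 of these 9 arrays, so for them the comparison says only that no rise above background was seen. Between ERG siRNA 2 and ERG siRNA 1, 0 of the 9 members were called and 0.118% of all genes were. Here ICAM1 differed by 0.24 (adjusted p = 0.532) and CCL2 by 0.33 (adjusted p = 0.445), both with ERG siRNA 2 arrays above all ERG siRNA 1 arrays, as for 7.83% of all genes, while the undetected CXCL1 had them below, as for 6.47%.

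The 2 treatments had different controls, so the controls were also compared with each other. Of the 9 members, 0 were called by limma for DMSO against the non-targeting siRNA, where 24.7% of all genes were called. At an unadjusted limma p under 0.05 there were 2, CCL2 and CCL20, with no share of all genes at that threshold given here. CCL2 had means of 5.35 ± 0.11 with DMSO and 5.04 ± 0.24 with the non-targeting siRNA (SD, n = 3 each), a change of 0.31 ± 0.12 (adjusted p = 0.0675). CCL20 changed by 0.19 ± 0.08 (adjusted p = 0.0867) with the probe undetected in both groups. For both genes the DMSO arrays lay above all non-targeting arrays, as for 22.9% of all genes. For NFKBIA and RELB they lay below, as for 19.3%, with changes of -0.12 (adjusted p = 0.336) and -0.25 (adjusted p = 0.161). The CXCL8 probe that did not represent the gene changed by 0.46 ± 0.16, with overlapping groups (limma adjusted p = 0.0619 when every probe was tested on its own). It was detected on 2 DMSO arrays and on 0 non-targeting arrays. These differences were small beside the rises with WP1130.

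The difference between the WP1130 effect and the mean ERG siRNA effect was tested directly in the same model. It passed for 7 of the 9 members, all higher, where 50.7% of all genes passed and 19.8% did so as higher. CXCL8 differed by 3.71 ± 0.19 (adjusted p = 4.56e-10), CCL2 by 2.17 ± 0.15 (1.67e-08), RELB by 1.20 ± 0.16 (1.76e-05) and NFKBIA by 1.02 ± 0.11 (1.94e-06). For TNFAIP3, CCL20 and CXCL1 the fitted differences were 2.07 (5.39e-08), 2.0 (4.04e-10) and 1.72 (5.29e-07). These 3 genes were detected on 0, 0 and 1 of the 12 arrays outside WP1130, so the fitted sizes rest on values at background, and without background correction they were 0.80, 0.74 and 0.61. RELB, undetected with DMSO, differed by 0.39 without background correction. ICAM1 differed by 0.16 (95% confidence interval -0.13 to 0.46) and CXCL3 by 0.22 (-0.29 to 0.74).

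Other genes of the pathway were read from lists of 142 genes besides the members, of which 83 passed the filter. With WP1130, 36 of the 83 rose and 11 fell, or 43.4% and 13.3%, where 21.9% and 37.1% of all genes did, and their median change was 0.18, against -0.12 over all genes. Of the 83 genes 9 passed the filter only through the WP1130 arrays, among them TNF, TNFRSF12A, ACKR2 and MMP9, and 5 of these 9 were called higher. Of the other 74, 31 rose and 11 fell, or 41.9% and 14.9%, where 19.5% and 39.3% of the 12031 genes that passed without the WP1130 arrays did. With the mean of both ERG siRNAs 10 rose and 7 fell, or 12% and 8.43%, where 10.7% and 9.58% of all genes did, with a median of -0.03, against 0 over all genes.

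Among the NF-kB subunits other than RELB, 1 of 4 rose with WP1130: NFKB1, the p105 and p50 gene, at 0.26 (adjusted p = 0.0047). Inhibitors and feedback genes had 7 up and 2 down of 13. NFKBIZ, an inducible nuclear IkB protein that steers a subset of NF-kB targets, rose by 3.05 ± 0.14 (adjusted p = 7.8e-11), and the IkB gene NFKBIE rose by 1.59 ± 0.08 (1.72e-10). N4BP1 fell by 0.94 and the ubiquitin ligase gene ITCH fell by 0.40. Among the IKK complex and upstream kinases 6 of 13 rose and 2 fell. IRAK2, a kinase of the interleukin 1 and Toll-like receptor pathway, rose by 3.68 ± 0.11 (2e-13), and MAP3K14, the kinase NIK of the non-canonical branch, by 0.73 ± 0.17 (0.00215). MAP3K14 was detected on 1 of 3 DMSO arrays, so its size rests on values at background. The TAK1-binding protein gene TAB1 fell by 0.74 and TANK fell by 0.37.

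Of the TRAF, IAP and adaptor genes 1 of 14 rose and 3 fell. SQSTM1, the autophagy and signalling adaptor p62, rose by 0.96 ± 0.08 (3.57e-08), XIAP fell by 0.50 ± 0.12 (0.00269), and TRAF5, undetected with WP1130, fell at least 1.17-fold. Upstream receptors had 2 up and 1 down of 8 past the filter, out of 17 with a probe. TNFRSF12A, the receptor of the cytokine TWEAK, was undetected with DMSO and rose at least 7.15-fold (2.43e-12). TNFRSF21 rose by 0.36, and the double-stranded RNA sensor TLR3 fell by 0.43.

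The cytokine list had 17 genes with a probe and 6 past the filter, of which 5 rose and 0 fell, where 21.9% and 37.1% of all genes did. Of these 6, TNF and LIF passed the filter only through the WP1130 arrays. LTA, or lymphotoxin alpha, rose by 1.99 ± 0.09 (3.62e-11). TNFSF15 rose by 1.98 ± 0.14 on 1 probe, while its other probe changed by -0.10. TNF itself, named here after its values were seen, was undetected with DMSO and rose at least 2.66-fold (3.57e-11). Other CXC and CC chemokines had 2 up and 1 down of 5 past the filter, out of 18. The interferon-induced CXCL10 rose by 1.30 ± 0.14 (9.25e-07) and CCL5 by 0.38. CXCL16 disagreed between probes, with -0.53 on the brighter and 1.48 on the other. Among receptors of the member chemokines, CCR6 rose by 0.61 ± 0.07 (1.69e-06; its other probe 0.29), and the scavenging receptor ACKR2, undetected with DMSO, rose at least 2.4-fold.

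Of 17 other NF-kB target genes 10 rose with WP1130 and 2 fell. GADD45B, a stress sensor, rose by 5.74 ± 0.13 (5.96e-15), and IER3, an early response gene, by 2.74 ± 0.14 (2.76e-10). IER3 was detected on 1 of 3 DMSO arrays, so the size of its rise rests on values at background. LCN2, undetected with WP1130, fell at least 1.06-fold and the survival gene BCL2L1 fell by 0.23, with -0.36 on its other probe. Many genes of these lists are also targets of other stress pathways.

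**Figure D4:**
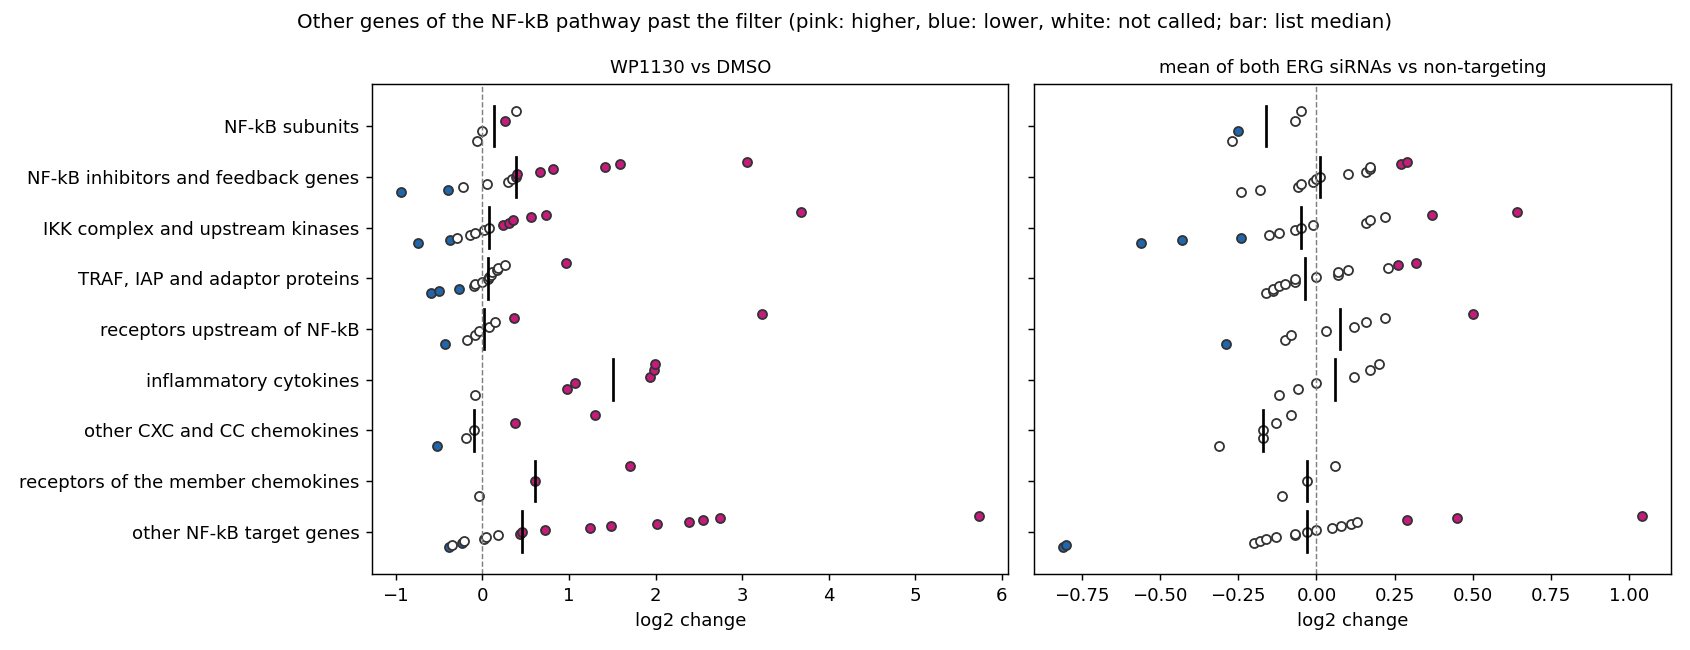
Change on the log2 scale (horizontal axes, which differ in range) of the 83 other pathway genes past the filter, 1 point per gene in 9 lists, for WP1130 against DMSO and for the mean of both ERG siRNAs against the non-targeting siRNA. The bar is the list median. With WP1130 36 genes rose and 11 fell, led by GADD45B at 5.74, and with the ERG siRNAs 10 rose and 7 fell.

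With the mean of both ERG siRNAs the genes that changed were spread over the lists. RIPK2, the kinase of the NOD receptors, rose by 0.64 ± 0.07 (4.68e-06), and TANK by 0.37. IRAK2 fell by 0.56 ± 0.09 (0.000598), the IKK kinase gene IKBKB fell by 0.43, and NFKB1 fell by 0.25. RNF11 rose by 0.29, OTULIN by 0.27, TRAF4 by 0.32 and SQSTM1 by 0.26. IL17RC rose by 0.50, with -0.10 and 0.56 on its other probes, and TNFRSF21 fell by 0.29. Among the other targets ZC3H12A, which encodes an RNase that degrades inflammatory transcripts, was undetected with the non-targeting siRNA and rose at least 1.39-fold (1.52e-05), and TNFAIP8 rose by 0.45. The tissue factor gene F3 fell by 0.81 ± 0.13 (0.000509) and SDC4, a heparan sulfate proteoglycan, fell by 0.80 ± 0.09 (1.03e-05). IRAK2 and SDC4 moved in opposite directions with WP1130 and with the siRNAs. The difference was 4.23 for IRAK2 (adjusted p = 2.43e-12) and 3.35 for SDC4 (1.64e-11). TANK, IKBKB (0.35 with WP1130), NFKB1 and TNFRSF21 were also called in opposite directions. RIPK2 (0.56 with WP1130), OTULIN (0.40), RNF11 (0.39), TNFAIP8 (0.46), SQSTM1 and ZC3H12A were called higher with both. No cytokine, other chemokine or chemokine receptor of the lists was called with the mean of both siRNAs, of 6, 5 and 3 past the filter.

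Since chemokines are also made by blood, stromal and endothelial cells, markers of these cells were read beside the members. All 8 prostate epithelium markers with a probe were detected on 15 of 15 arrays. Of these, KRT8 (1.12) and KRT18 (0.71, but -0.08 on its other probe) rose with WP1130, while FOXA1, HOXB13, KLK2 and TMPRSS2 fell. CDH1 (0.05) and EPCAM (0.03) did not pass, although the other EPCAM probes changed by 0.58 (adjusted p = 0.000563) and 0.07. The summed raw intensity of these 8 markers was 20340 to 21700 with WP1130, against 33870 to 37240 with DMSO. All raw sums include the lower overall intensity of the WP1130 arrays. Of 9 blood cell markers 5 passed the filter, and the defining markers PTPRC, CD3E and ITGAM were detected on 0 arrays. With WP1130, CD68 (1.71, and 1.09 on its other probe), CD163 (1.09, and 0.86) and CD14 (0.93, but 0.13 on its other probe, adjusted p = 0.375) rose. LYZ (-0.09) and MS4A1 (0.01) did not pass, although the other LYZ probe changed by 0.95 (3.55e-06), and the summed raw intensity of the list was 2831 to 2909 with WP1130, against 2640 to 2754 with DMSO. Of 8 fibroblast markers COL1A2, COL3A1, PDGFRB and THY1 were detected on 0 arrays, and the summed intensity was 1557 to 1602 with WP1130, against 2094 to 2195 with DMSO. Of the 3 past the filter, LUM was detected on 15 of 15 arrays and fell by 0.84 with WP1130 (limma adjusted p = 1.35e-06). COL1A1 (0.14) and DCN (0.11) did not pass. Of 7 endothelial markers PECAM1, CDH5 and KDR were detected on 0 arrays, with sums of 1018 to 1047 with WP1130 and 1129 to 1207 with DMSO. Both endothelial markers past the filter were called, VWF higher (0.63) and ENG lower (-0.56). The part of these markers in the rises of the chemokines was not tested. In bulk RNA a change in how many cells make a transcript and a change in its amount per cell cannot be told apart.

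The genes whose profile over the 15 arrays was most like each member's are given as a description, over all 15 arrays and then over the 12 without WP1130. IER3 had r = 0.995 with TNFAIP3 over 15 arrays and 0.62 over the 12 without WP1130, and MAL had 0.996 and 0.61. For CCL20 these were RGCC (0.996, and 0.57 without WP1130) and S100A2 (0.996, and 0.53), and for CXCL8 the 18S ribosomal RNA gene RNA18SN5 (0.996, and 0.83) and the p38 kinase activator MAP2K3 (0.995, and 0.54). CCL2 ran with the lipid droplet gene PLIN2 (0.991, and 0.81) and with STX3 (0.991, and 0.81), and CXCL1 with CLTB (0.989, and 0.75) and CALCB (0.988, and 0.60). NFKBIA ran with GLT6D1 (0.989, and 0.91) and TSSC4 (0.988, and 0.81). RELB was closest to AKIRIN2 (0.963, and 0.78), a nuclear protein needed for part of the NF-kB response, and SNORD88C (0.962, and 0.77). For CXCL3 the closest were MTCH1 (0.876, and 0.87) and SPINDOC (0.799, and 0.81), and for ICAM1 they were ATP6V0D2 (0.799, and 0.89) and ATAD2B (0.76, and 0.73), so for these members the values changed little or were higher without the WP1130 arrays. Within groups, replicate arrays correlated at 0.993 to 0.997, and 18460 to 21220 probes were detected per array.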

How the data were processed

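Expression was measured on 15 Illumina HumanHT-12 v4 arrays of biotin-labelled cRNA, per the labels. The deposited non-normalized table gives an intensity on a linear scale for each of 47322 probes and array, with a detection p-value beside it, per the file headers. Per the submitters' processing notes GenomeStudio was used, its version and role being unstated. The series' other deposited table holds the authors' processed intensity per probe, on a linear scale with a common median in each column; how it was scaled is unstated, and it served as an alternative.

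The neqc function (limma 3.58.1, R 4.3.3) applied normexp background correction using control levels deduced from detection p-values, an offset of 16, quantile normalization and log2. Probes detected (p under 0.05) on at least 3 arrays were kept, which left 23281. Of all probes 30113 had 1 gene symbol in the platform annotation, 8 had several and 17201 were not listed. The brightest probe stood for each of 12744 genes. A 5-group limma model with 10 residual degrees of freedom was fitted to all arrays, with moderated two-sided tests and Benjamini-Hochberg adjustment over all genes. Precision rests on 3 arrays a group, with a typical SE of 0.1 on the log2 scale. The fit was tested on simulated data.

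Named are all 10 members with all probes, of each pathway list up to 2 rises and 2 falls past the threshold per main comparison, ERG, and the 2 genes most correlated with each member. The members and lists were chosen with earlier results of these data known. Alternatives covered background, scaling, filter, replicate block, samples fitted, moderation, probe summary and thresholds, and each array left out in turn. Promoter stretches and motif matches came from a RefSeq table, with identities from global alignment in Biopython 1.88.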

Additional observations from a re-analysis of the deposited data

Results flagged for a closer look

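The effect of WP1130 (against DMSO) differed from the mean effect of the ERG siRNAs (against the non-targeting siRNA) by the model's own test of the difference for 7 members. In that test 50.7% of all genes passed, and 19.8% did so as higher. On the log2 scale the WP1130 effect exceeded the siRNA effect by 3.71 for CXCL8, 2.17 for CCL2 and 1.02 for NFKBIA. For RELB, a dim probe detected on 0 DMSO arrays, the fitted difference was 1.20, and 0.39 without background correction. The fitted differences of 2.07 for TNFAIP3, 2.0 for CCL20 and 1.72 for CXCL1 rest on values at background, with 0, 0 and 1 of the 12 arrays outside WP1130 detected, and their size is not measured. TNFAIP3, CCL20 and CXCL1 also passed the filter only through the WP1130 arrays. WP1130 was given for 24 h and the siRNAs for 72 h, so agent and time cannot be told apart in this difference.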

How the results depend on the processing

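The counts of members called were 7 with WP1130 and 7 for the difference between effects, where 59% and 50.7% of all genes were called. These counts ran from 7 to 8 over the alternatives. The count of 8 came with no detection filter, through CXCL2, and for WP1130 also without DMSO replicate 1, through ICAM1. The counts were 0 in every alternative run for ERG siRNA 1, ERG siRNA 2, their mean, and ERG siRNA 2 against ERG siRNA 1. For DMSO against the non-targeting siRNA the count was 0, and 1 with the authors' processed values (CCL20, 0.60, adjusted p = 0.015) and with only the groups compared (RELB, -0.25, 0.0464), and ran from 0 to 2 when single arrays were left out; the cause was not tested. Without non-targeting siRNA replicate 1 it was 1 (CXCL1, 0.37, 0.0403), and without replicate 2 it was 2 (CCL2, 0.40, 0.0334, and CXCL3, -0.52, 0.0415). With the replicate number as a block the count was 7 for WP1130 and 1 for DMSO against the non-targeting siRNA (CCL2, 0.31, 0.0289). Same-numbered arrays correlated at -0.02 to 0.14, over 0.1 in 3 of 12 pairs, and in 6 of 12 best with their own number. Whether the number stands for a shared culture or run is not stated in the labels and was not tested. Of 1291 single-gene values over all comparisons and alternatives, 1284 kept their side of the threshold, 7 gained a call, 0 lost one and 0 reversed. No slide block was run, since the labels and headers name no slides. Signal over background limits what can be said of ICAM1, CXCL2 and CXCL3, of RELB with DMSO, and of TNFAIP3, CXCL1 and CCL20 outside WP1130.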

Other observations

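CXCL8, CXCL1, CXCL3 and CXCL2 lie in 1 gene cluster, in this order with CXCL6, PF4V1, PF4, PPBP and CXCL5 between them, by the order of protein-coding genes in the RefSeq annotation of GRCh38.p14. Their neighbours were near background here. The CXCL5 probes and the PF4 probe were detected on 0 of 15 arrays, and the PF4V1 probe on 1, a WP1130 array. The CXCL6 probes were detected on 2 arrays each, of which 2 and 1 were WP1130 arrays, with raw intensities of 105 to 138. PPBP was detected on 12 arrays, 3 of them WP1130 arrays, at raw intensities of 115 to 147, and its change with WP1130 is not given here. Of the members in this cluster, CXCL8 and CXCL1 were called higher with WP1130, at its end and in its middle. CXCL3 was not called, and CXCL2 was higher in the fit with no filter.

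The 2 CXCL8 probes correlated at 0.99 over 15 arrays and at 0.22 over the 12 without WP1130, where 1 of them was mostly undetected. On the raw scale the ratio of WP1130 to DMSO means was 3.39 for the first and 9.31 for the other.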
